A study of Mus musculus with 6 samples.

Results

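The genes described here are 10 genes known from hematopoietic stem and progenitor cells: Kit, Cd34, Flt3, Meis1, Hoxa9, Erg, Spi1, Csf2rb, Csf2rb2 and Il3ra. All probe sets that the array annotation gives to 1 of these symbols alone were taken, which were 16 of 45037 probe sets and stood for 10 of 18193 named genes. They were measured on Affymetrix arrays, 1 array per mouse, in bone marrow cells sorted as CD71+Ter119+, that is, for the transferrin receptor and for a surface antigen of the red cell lineage. The knockout group was 3 female mice aged 6 weeks with both Bcl11a alleles floxed and the EpoR-Cre allele (Bcl11a fl/fl EpoR-Cre+), in which Cre is driven by the erythropoietin receptor gene. The control group was 3 female mice of the same age with unaltered Bcl11a (Bcl11a +/+), and the labels name Cre for the knockouts only. Effects of Cre or of the altered receptor allele therefore cannot be told apart from those of Bcl11a. Bcl11a itself had 1286, 1419 and 1190.1 in the knockouts, against 1475, 1553 and 1449.7 in the controls in the brightest of its 7 probe sets. All knockouts were below all controls in 4 of the 7 and above them in 2, none of the 7 passed the test (limma), and since the place of the probes relative to the deleted part is not known here, these values do not check the labels.

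Blood stem cells and early progenitors read growth signals through surface receptors and hold their state through a small set of transcription factors. Kit binds stem cell factor and Flt3 binds Flt3 ligand, and both are receptor tyrosine kinases. Il3ra is the alpha chain that gives the interleukin-3 receptor its specificity, while Csf2rb is the beta chain shared by the receptors for interleukin-3, interleukin-5 and GM-CSF, and Csf2rb2 is a mouse paralog of it that serves interleukin-3 alone. As cells commit to the red lineage most of these genes are turned down, Kit later than Cd34 and Flt3. Several are also used by other bone marrow cells: Kit and Il3ra by mast cells and basophils, Flt3 by lymphoid progenitors, Spi1 by myeloid and B cells, and the beta chains by neutrophils and eosinophils.

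None of the 16 probe sets passed the test between knockout and control mice, and no stem or progenitor gene of the 10 can be said to have changed at 3 mice a group (limma on log2(intensity + 16), Benjamini-Hochberg adjustment over all probe sets, threshold 0.05). The lowest adjusted p was 0.315, in the dimmer probe set of Erg, whose knockout values cannot be told from background. Over all probe sets 0.14% were called higher in the knockouts and 0.00666% lower. At an unadjusted p under 0.05 there were 2 of the 16, the one of Cd34 and the dimmer one of Erg, both lower; by that rule 5.21% of all probe sets were lower and 7.21% higher. Log2 changes were below 0 in 14 of the 16, against 51.2% of all probe sets, and their median was -0.25, against -0.01 over all probe sets. For the brightest probe set of each gene the median was -0.25, 9 of 10 were below 0, against 50.2% of all named genes, and the range was -0.51 to 0.03. In 4 of the 16 all knockouts were below all controls, and in none above; over all probe sets 8.91% were below and 10.6% above. The 4 belonged to Erg (both of its probe sets), Flt3 and Spi1.

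**Figure D1:**
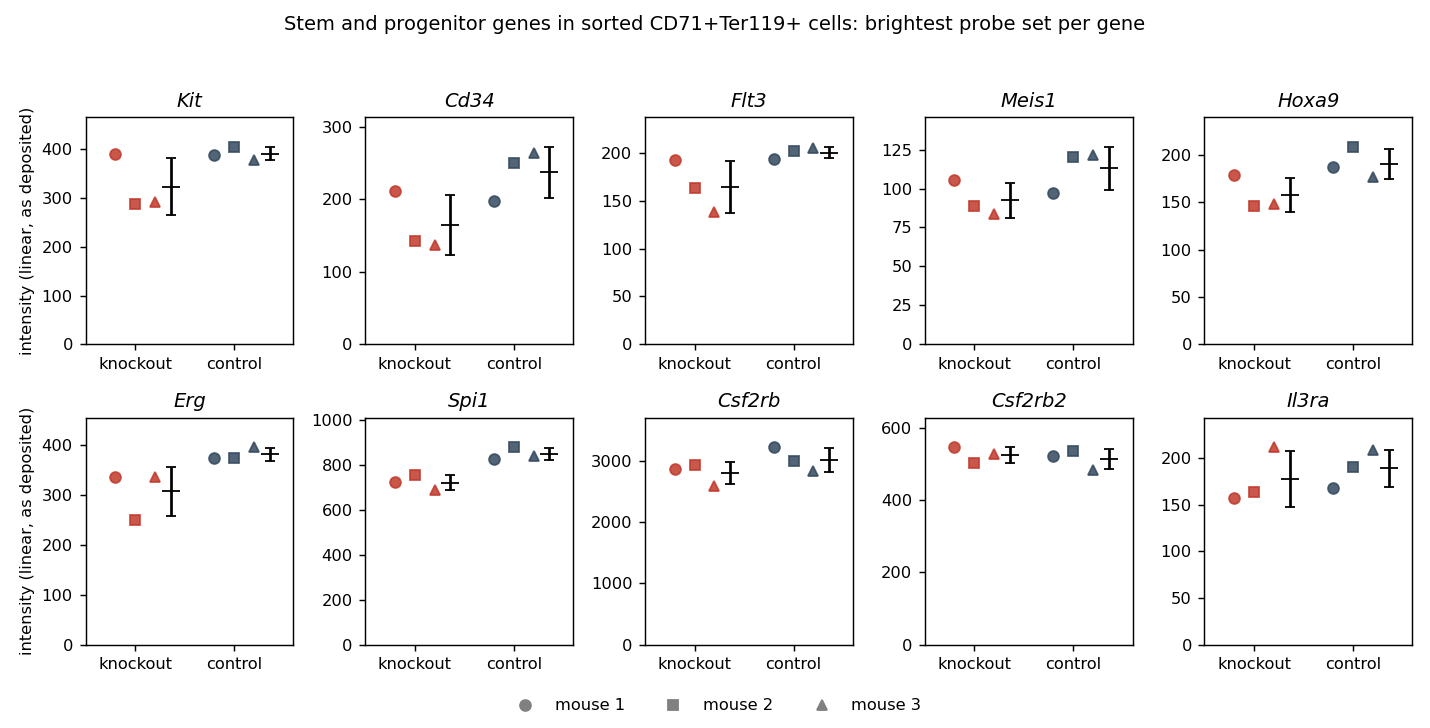
Deposited linear intensity (vertical axis, from 0) of the brightest probe set of each gene in knockout (left) and control (right) mice; each symbol is 1 mouse, and the bar with caps is the mean ± SD of 3 mice. The groups are apart for Flt3, Erg and Spi1. Knockout mouse 1 (circle) lies inside the control range for Kit, Cd34, Meis1, Hoxa9 and Csf2rb. It lies above that range for Csf2rb2 and below it for Flt3, Erg, Spi1 and Il3ra.

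Of the 10 genes, 8 matched a promoter window in RefSeq's table for the mouse build GRCm38.p6; Spi1 and Csf2rb are named only. The 250 bases before each start were searched on both strands for TGACCA, a motif of BCL11A, AGATAA, a motif of GATA factors, and GAGGAA, a motif of PU.1, the protein made from Spi1. The motifs do not overlap each other in the windows printed. TGACCA was found for 1 gene, Hoxa9, and in 11.4% of all 32851 windows of this length. AGATAA was found for 1 gene, in 1 of the 3 windows of Erg, and in 9.99% of all windows. GAGGAA was found for 3 genes, Hoxa9, Kit and Csf2rb2, and in 23.3% of all windows. The windows of these 4 genes are shown because they hold the letters of a motif of the deleted factor or of a factor these cells use, which says nothing of binding; the other 4 genes (Cd34, Flt3, Meis1 and Il3ra) held none of the 3 motifs. They run 5′ to 3′ in the direction of the gene, and capitals mark the motifs, where TTCCTC is GAGGAA and TTATCT is AGATAA on the other strand.
Hoxa9 (chr6:52227371-52227620, minus strand): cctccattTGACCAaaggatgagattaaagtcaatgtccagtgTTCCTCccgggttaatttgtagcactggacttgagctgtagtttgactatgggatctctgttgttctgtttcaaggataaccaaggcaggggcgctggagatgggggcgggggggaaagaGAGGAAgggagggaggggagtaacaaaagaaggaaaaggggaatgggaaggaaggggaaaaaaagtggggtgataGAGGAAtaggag
Kit (chr5:75574737-75574986, plus strand): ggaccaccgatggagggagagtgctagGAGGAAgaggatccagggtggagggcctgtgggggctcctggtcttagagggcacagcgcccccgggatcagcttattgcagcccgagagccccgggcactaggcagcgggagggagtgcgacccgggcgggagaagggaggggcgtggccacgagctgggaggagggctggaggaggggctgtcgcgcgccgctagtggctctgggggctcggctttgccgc
Csf2rb2 (chr15:78305722-78305971, minus strand): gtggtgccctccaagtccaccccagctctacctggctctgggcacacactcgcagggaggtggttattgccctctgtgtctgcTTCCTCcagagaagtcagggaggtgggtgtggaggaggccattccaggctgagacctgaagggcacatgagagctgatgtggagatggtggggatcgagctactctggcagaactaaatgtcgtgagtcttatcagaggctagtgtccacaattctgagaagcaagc
Erg (chr16:95459349-95459598, minus strand): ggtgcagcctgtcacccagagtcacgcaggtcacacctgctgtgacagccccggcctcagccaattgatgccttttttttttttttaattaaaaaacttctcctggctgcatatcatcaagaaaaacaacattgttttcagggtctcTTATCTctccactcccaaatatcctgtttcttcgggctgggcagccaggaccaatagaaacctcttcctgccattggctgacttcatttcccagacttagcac
In Hoxa9 the motif TGACCA ends 237 bases before the start, and the last GAGGAA ends 7 bases before it. In Kit the motif begins 223 bases before the start used here, and a second listed start lies 4 bases further on.

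Among the surface proteins, Cd34 had the log2 change furthest below 0, and those of Kit and Flt3 were closer to 0. Kit was read by 2 probe sets. The brighter had an intensity of 390.5, 289 and 291 in knockout mice 1, 2 and 3, against 389.5, 405 and 378 in control mice 1, 2 and 3. Knockout mouse 1 lay inside the control range, the other 2 knockouts lay below all controls, and so the groups overlapped. The means were 324 ± 58.0 in the knockouts and 391 ± 13.5 in the controls (SD, n = 3 each), a log2 change of -0.27 ± 0.14 (SE, limma adjusted p = 0.488), with a 95% interval of -0.61 to 0.07. The dimmer probe set of Kit had 39.2, 43.7 and 32.2 in the knockouts, against 40.2, 59.6 and 55.7 in the controls, and its log2 change was -0.31 (95% interval -0.68 to 0.06, adjusted p = 0.471). In this probe set knockout mouse 2 was the one inside the control range, and without detection calls such levels cannot be told from background.

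Cd34 encodes a sialomucin used to mark stem and progenitor cells, and 1 probe set read it. Its intensity was 211, 143 and 137 in knockout mice 1, 2 and 3, against 197, 249.5 and 264 in control mice 1, 2 and 3. Knockout mouse 1 exceeded control mouse 1, and the other 2 knockouts lay below all controls. The means were 164 ± 41.3 in the knockouts and 237 ± 35.0 in the controls (SD, n = 3 each), a log2 change of -0.51 ± 0.19 (SE, limma adjusted p = 0.368). Its unadjusted p was 0.0372 and its 95% interval, -0.97 to -0.04, lay below 0, but the change did not pass after adjustment over all probe sets.

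Flt3 was read by 1 probe set, with 192, 163 and 139 in knockout mice 1, 2 and 3, against 194, 203 and 205 in control mice 1, 2 and 3. All knockouts lay below all controls, with knockout mouse 1 the closest to them. The means were 165 ± 27.0 in the knockouts and 201 ± 5.82 in the controls (SD, n = 3 each), so the knockouts varied more than the controls, and the log2 change was -0.27 ± 0.13 (SE, limma adjusted p = 0.469) with a 95% interval of -0.59 to 0.05. The two-sided exact permutation p was 0.1, the smallest that 3 against 3 mice allow.

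**Figure D2:**
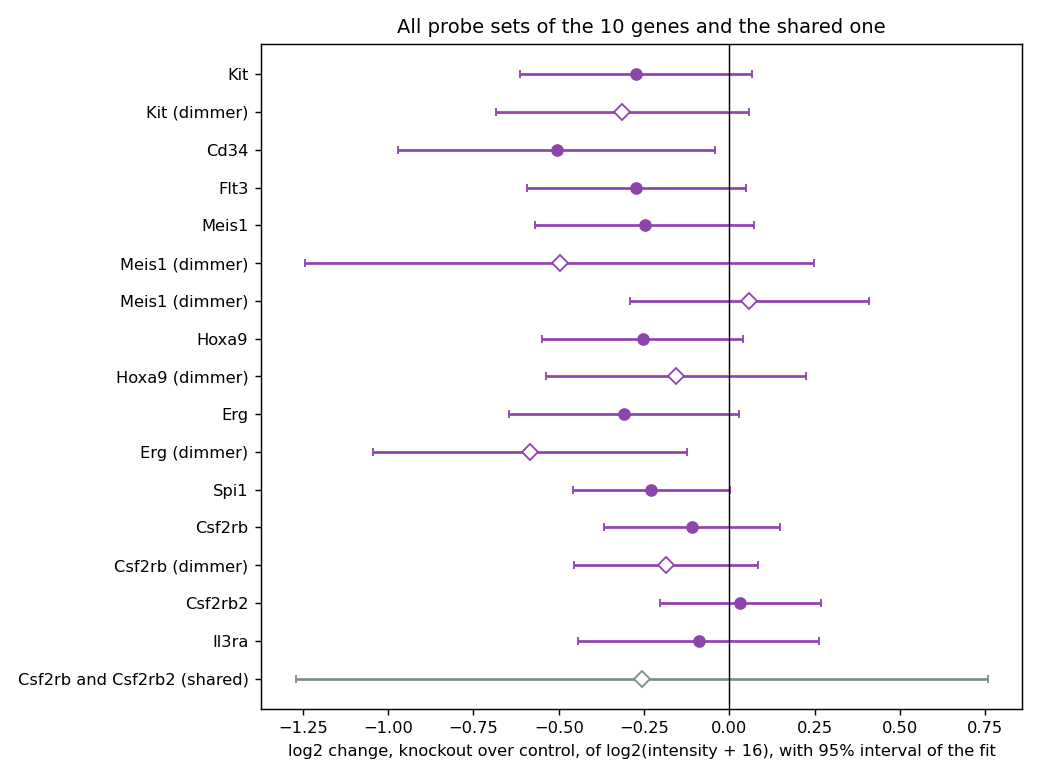
Log2 change, knockout over control, of log2(intensity + 16) with its unadjusted 95% interval (horizontal axis) for each of the 16 probe sets and for the probe set shared by Csf2rb and Csf2rb2 (grey); filled circles are the brightest probe set of a gene and open diamonds the dimmer or shared ones. Intervals of Cd34 and of the dimmer Erg probe set lie below 0, all others include it, and none passed after adjustment.

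The 4 transcription factors had log2 changes close to each other, from -0.31 to -0.23 in their brightest probe sets. Erg, an ETS factor needed to maintain stem cells, was read by 2 probe sets. The brighter had 334, 249 and 336 in knockout mice 1, 2 and 3, against 372, 374 and 395 in control mice 1, 2 and 3. All knockouts were below all controls, knockout mouse 2 by the widest margin. The means were 306 ± 49.5 in the knockouts and 380.2 ± 12.4 in the controls (SD, n = 3 each), a log2 change of -0.31 ± 0.14 (SE, limma adjusted p = 0.434) with a 95% interval of -0.65 to 0.03. The dimmer one had 49.5, 66.0 and 53.1 in the knockouts, against 82.3, 124 and 75.0 in the controls, again with no overlap and with control mouse 2 well above the others. Its log2 change, -0.58 ± 0.19 (SE, limma adjusted p = 0.315), was the furthest below 0 of the 16, with a 95% interval of -1.04 to -0.12 and an unadjusted p of 0.0204. Knockout values of the dimmer one lay below the array medians of 67.5 to 70.9. Without detection calls such levels cannot be told from background. The 2 probe sets of Erg pointed the same way, at different sizes, and the size in the dimmer one is uncertain. For each the two-sided exact permutation p was 0.1.

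Spi1 encodes PU.1, an ETS factor that drives myeloid and lymphoid fates and opposes GATA1 in erythroid cells. Its 1 probe set had 721, 753 and 685 in knockout mice 1, 2 and 3, against 824, 877 and 837 in control mice 1, 2 and 3. The groups did not overlap, and the means were 719.8 ± 34.3 in the knockouts and 846 ± 27.6 in the controls (SD, n = 3 each). The log2 change was -0.23 ± 0.10 (SE, limma adjusted p = 0.405), with an unadjusted p of 0.0513, a 95% interval of -0.46 to 0.00 and a two-sided exact permutation p of 0.1.

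Hoxa9 and Meis1 act together, since the homeodomain proteins they encode bind DNA as partners and keep progenitors dividing. The brighter of 2 Hoxa9 probe sets had 178, 146 and 148 in knockout mice 1, 2 and 3, against 187, 208 and 177 in control mice 1, 2 and 3. Knockout mouse 1 was just above the lowest control, and the other 2 knockouts were below all controls. The log2 change was -0.25 ± 0.12 (SE, limma adjusted p = 0.461), with a 95% interval of -0.55 to 0.04. The dimmer Hoxa9 probe set had 139, 120.3 and 134 in the knockouts, against 142, 122 and 185 in the controls, a log2 change of -0.16 (95% interval -0.54 to 0.22, adjusted p = 0.734), and the groups overlapped more widely.

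The brightest of 3 Meis1 probe sets had 105, 88.7 and 83.4 in knockout mice 1, 2 and 3, against 97.0, 120.4 and 121 in control mice 1, 2 and 3. Knockout mouse 1 exceeded control mouse 1, and the other 2 knockouts were below all controls. The log2 change was -0.25 ± 0.13 (SE, limma adjusted p = 0.503), with a 95% interval of -0.57 to 0.07. The 2 dimmer probe sets disagreed in sign, with log2 changes of -0.50 (95% interval -1.24 to 0.25) and 0.06 (95% interval -0.29 to 0.41). Their group means lay between 23.4 and 42.7, and without detection calls such levels cannot be told from background.

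The 3 chains of the interleukin-3 receptor family had the smallest log2 changes of the 10 genes, between -0.11 and 0.03, and in each the groups overlapped. Csf2rb, the shared beta chain, was read by 2 probe sets, and the brighter had 2871, 2932 and 2595 in knockout mice 1, 2 and 3, against 3227, 3009 and 2833 in control mice 1, 2 and 3. Only knockout mouse 3 lay below all controls. The means were 2799 ± 179.7 in the knockouts and 3023 ± 197 in the controls (SD, n = 3 each), a log2 change of -0.11 ± 0.11 (SE, limma adjusted p = 0.724). Its 95% interval, -0.37 to 0.15, lay on both sides of 0. The dimmer one had 831, 698 and 723 in the knockouts, against 897, 861 and 805 in the controls, a log2 change of -0.19 (95% interval -0.46 to 0.08, adjusted p = 0.552), with 2 of 3 knockouts below all controls.

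Csf2rb2, the paralog, had 546, 503 and 527 in knockout mice 1, 2 and 3, against 523, 535 and 483 in control mice 1, 2 and 3 in its 1 single-gene probe set. The 2 groups interleaved, and the means were 525 ± 21.8 in the knockouts and 514 ± 27.4 in the controls (SD, n = 3 each). The log2 change was 0.03 ± 0.10 (SE, limma adjusted p = 0.928), with a 95% interval of -0.20 to 0.27. It was the only brightest probe set of the 10 with a change above 0, and that sign turned without control mouse 3 (-0.01, adjusted p = 0.983). A further probe set is annotated to both Csf2rb and Csf2rb2, so it is not counted among the 16. It had 136, 101 and 45.9 in the knockouts, against 81.0, 185 and 80.2 in the controls, a log2 change of -0.26 with a 95% interval of -1.27 to 0.76 (adjusted p = 0.855), too wide to separate the groups. Whether the single-gene probe sets also bind RNA of the other gene was not tested.

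Il3ra, the interleukin-3 alpha chain, had 157, 164 and 211 in knockout mice 1, 2 and 3, against 168, 191 and 208 in control mice 1, 2 and 3. Knockout mouse 3 was above all controls and the other 2 knockouts below all controls. The log2 change was -0.09 ± 0.15 (SE, limma adjusted p = 0.853), with a 95% interval of -0.44 to 0.26.

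The knockout mice were not alike in these genes. In the brightest probe sets, knockout mouse 1 was the highest of the 3 knockouts for 6 of 10 genes (Kit, Cd34, Flt3, Meis1, Hoxa9 and Csf2rb2) and lay below all controls for 4. Knockout mice 2 and 3 lay below all controls for 8 genes each. Over all named genes, the share below all controls was 25.6%, 25.8% and 27.5% in knockout mice 1, 2 and 3. Relative to the control mean, the median log2 deviation over the 10 genes was -0.08, -0.28 and -0.31 in knockout mice 1, 2 and 3, against -0.03, 0.05 and 0.01 in control mice 1, 2 and 3. Over all named genes this median was 0.0054, 0.0073 and -0.0050 in the knockouts, against 0.0032, -0.0084 and 0.010 in the controls. The controls are set against their own mean, so their deviations lie close to it by construction. Without knockout mouse 1, the median log2 change of the 10 genes was -0.34, against -0.25 with all mice, and without any other single mouse it lay between -0.27 and -0.20. Cd34 ranged from -0.69 without knockout mouse 1 to -0.40 without knockout mouse 3, and Kit from -0.41 without knockout mouse 1 to -0.20 without knockout mouse 2. Erg had -0.31 with all mice and -0.17 without knockout mouse 2, and Flt3 had -0.27 with all mice and -0.17 without knockout mouse 3. Csf2rb ranged from -0.16 without control mouse 3 to -0.06 without knockout mouse 3. Il3ra depended on knockout mouse 3, with -0.21 without it and -0.01 without knockout mouse 1. No gene of the 10 passed the test under any of these omissions.

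**Figure D3:**
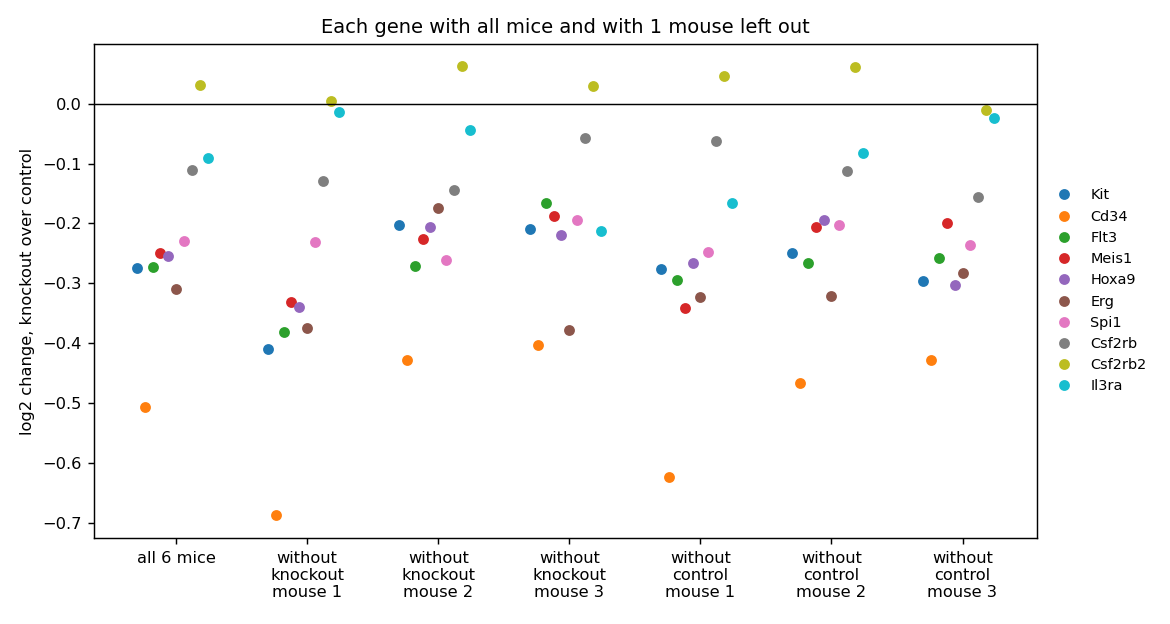
Log2 change, knockout over control (vertical axis), of the brightest probe set of each gene with all 6 mice and with each mouse left out in turn; each point is 1 gene. Cd34, Kit and Flt3 lie furthest below 0 without knockout mouse 1, and Csf2rb2 runs from -0.01 to 0.06.

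Other genes of the same biology were read through 4 lists, and 59 of their 65 genes were analysed here. None of the 59 passed the test in either direction (limma, brightest probe set), and 6 were lower and 7 higher at an unadjusted p under 0.05, against 4.54% and 8.2% of all named genes. Over all named genes 0.209% were called higher and 0.0055% lower. In 14 of the 59 all knockouts were below all controls and in 8 above, against 9.22% and 12.4% of all named genes. Log2 changes were below 0 in 33 of the 59, against 50.2% of all named genes, and the median log2 change was -0.07.

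Progenitor transcription factors had changes in both directions, and none passed. Of 18, 14 had log2 changes below 0 and 4 above, against 50.2% of all named genes below 0, and the median was -0.17. The groups did not overlap in 5 below and 4 above, against 9.22% and 12.4% of all named genes. Genes detailed next have the smallest p of the list. Also without overlap were Myb (-0.42), Cebpa (-0.30), Gata2 (-0.30) and Runx1 (-0.24) below and Lmo2 (0.30) above. Tal1, a partner of GATA1 that stem cells also need, had 6593, 7326 and 8044 in the knockouts, against 4749.9, 3126 and 3880.2 in the controls, a log2 change of 0.91 ± 0.18 (SE, limma adjusted p = 0.157). Gfi1b, a repressor of erythroid and megakaryocyte precursors, had one of 0.61 ± 0.16 (SE, limma adjusted p = 0.240). Lyl1, a relative of Tal1, had one of 0.31 ± 0.10 (SE, limma adjusted p = 0.305). In all 3 every knockout lay above every control. Etv6, an ETS factor needed for adult stem cells, had 699, 622 and 735 in the knockouts, against 977, 881 and 844 in the controls, a log2 change of -0.39 ± 0.11 (SE, limma adjusted p = 0.279) with no overlap.

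Of 9 progenitor surface proteins, 6 had log2 changes below 0 and 3 above, with a median of -0.10. Cd93, a lectin-like protein of early progenitors, B cell precursors and myeloid cells, had 1641, 1779 and 1217 in the knockouts, against 1990.1, 2267 and 2459.8 in the controls. All knockouts were below all controls, and the log2 change was -0.54 ± 0.17 (SE, limma adjusted p = 0.304). Procr, the protein C receptor of stem cells, had one of -0.50 ± 0.40 (SE, limma adjusted p = 0.662), Cd48 one of -0.14 ± 0.12 (SE, limma adjusted p = 0.686) and Tek one of -0.21 ± 0.23 (SE, limma adjusted p = 0.749). The group means of Procr and Tek were between 8.95 and 23.4, levels that cannot be told from background.

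Of 11 HOX, MEIS and PBX genes, relatives or DNA-binding partners of Hoxa9 and Meis1, 7 had log2 changes below 0 and 4 above, with a median of -0.07. Hoxa7, counted above 0, read between 1.00 and 3.72 on all arrays, levels that cannot be told from background. In this list 4 values were at or below 1. Hoxa3 had 15.7, 32.9 and 16.9 in the knockouts, against 42.7, 64.7 and 90.8 in the controls in its brightest probe set, a log2 change of -1.10 ± 0.27 (SE, limma adjusted p = 0.220). The knockout values lay in the range that cannot be told from background, so the size of this difference is uncertain. Pbx3 had one of 0.55 ± 0.22 (SE, limma adjusted p = 0.388) with overlapping groups, Pknox1 one of -0.22 ± 0.10 (SE, limma adjusted p = 0.420) and Pbx2 one of -0.15 ± 0.09 (SE, limma adjusted p = 0.571), both without overlap.

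Of 21 ligands and signalling genes of Kit, Flt3 and the beta chain receptors, 6 had log2 changes below 0 and 15 above. Over all named genes 50.2% were below 0, and the median of the list was 0.03. The 15 include Il3, listed at 1.00 in every control, and Grb2 and Stat5b, with log2 changes of 0.003 and 0.01. In this list 4 values were at or below 1. Cish, a feedback inhibitor induced by STAT5, had 327, 399.9 and 418 in the knockouts, against 215, 156 and 178 in the controls. All knockouts were above all controls, and the log2 change was 1.00 ± 0.16 (SE, limma adjusted p = 0.101). Socs2, another STAT5-induced inhibitor, had 176, 94.8 and 92.4 in the knockouts, against 195, 249 and 230.1 in the controls, all knockouts below all controls, and a log2 change of -0.86 ± 0.24 (SE, limma adjusted p = 0.262). Ptpn11, the phosphatase SHP2 that carries Kit signals, had one of 0.58 ± 0.11 (SE, limma adjusted p = 0.139) and Pik3r1, a regulatory subunit of PI3 kinase, one of 0.35 ± 0.14 (SE, limma adjusted p = 0.387), both without overlap.

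The arrays also read genes of other cell types. Array medians ranged from 67.5 to 70.9. Of 9 erythroblast markers, which include Tfrc, the gene of CD71, all 9 exceeded 500 on every array. In 7 every knockout lay above every control, against 12.4% of all named genes, and the list median was 0.43. Epor and Alas2 overlapped between groups, with log2 changes of -0.14 and -0.06. The summed intensity of the 9 lay between 105617 and 117803 in the knockouts, against 80677 to 99040.0 in the controls. The neutrophil gene S100a8 gave the highest value of each array, 38113, 38680.0 and 39377 in the knockouts, against 40360.2, 39661 and 39778 in the controls, although the cells were sorted for erythroid antigens. All 10 neutrophil markers exceeded 500 on every array. In 7 every knockout lay below every control, against 9.22% of all named genes. The list median was -0.09, and the sum lay between 193209 and 201048 in the knockouts, against 209496 to 210603 in the controls. The 6 mast cell and basophil markers all had log2 changes below 0, against 50.2% of all named genes, with a median of -0.28. Their sums lay between 4698 and 6297 in the knockouts, against 6867 to 7298 in the controls. The 6 B cell markers were all below 0 as well, with a median of -0.37 and sums between 7429 and 10000.4 in the knockouts, against 10629.5 to 12523 in the controls. Igll1 and Vpreb1, the surrogate light chain genes of B cell precursors, had log2 changes of -1.31 ± 0.23 (SE, limma adjusted p = 0.136) and -1.19 ± 0.24 (SE, limma adjusted p = 0.168). Vpreb1 read 1007, 552 and 653 in the knockouts, against 1418, 1934 and 1623 in the controls. No value of the neutrophil, mast cell and basophil, eosinophil or B cell markers was at or below 1.

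The 4 eosinophil markers had a median of -0.11 and sums between 17842 and 21916 in the knockouts, against 19718 to 21617 in the controls. The 9 macrophage and monocyte markers had a median of -0.05 and sums between 14225 and 15502 in the knockouts, against 13744 to 14517 in the controls. In 1 of the 9, Csf1r, every knockout lay above every control, against 12.4% of all named genes. It had 4766, 4785 and 4679 in the knockouts, against 3925, 3948 and 3819 in the controls (limma adjusted p = 0.304). The 5 megakaryocyte markers had a median of -0.19 and sums between 1369 and 2351 in the knockouts, against 1569 to 1970.0 in the controls. The highest of these sums, in knockout mouse 3, holds 653 of Ppbp, which read 79.0 and 109 in knockout mice 1 and 2. The platelet receptor gene Gp6 read between 1.00 and 12.1 on all arrays. The 4 T and NK cell markers had a median of 0.16 and sums between 2259 and 2746 in the knockouts, against 2278 to 2833 in the controls. None of the markers passed the test. The part of these cells in the values of the 10 genes was not tested. In bulk samples, fewer cells of a type and less RNA per cell cannot be told apart.

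**Figure D4:**
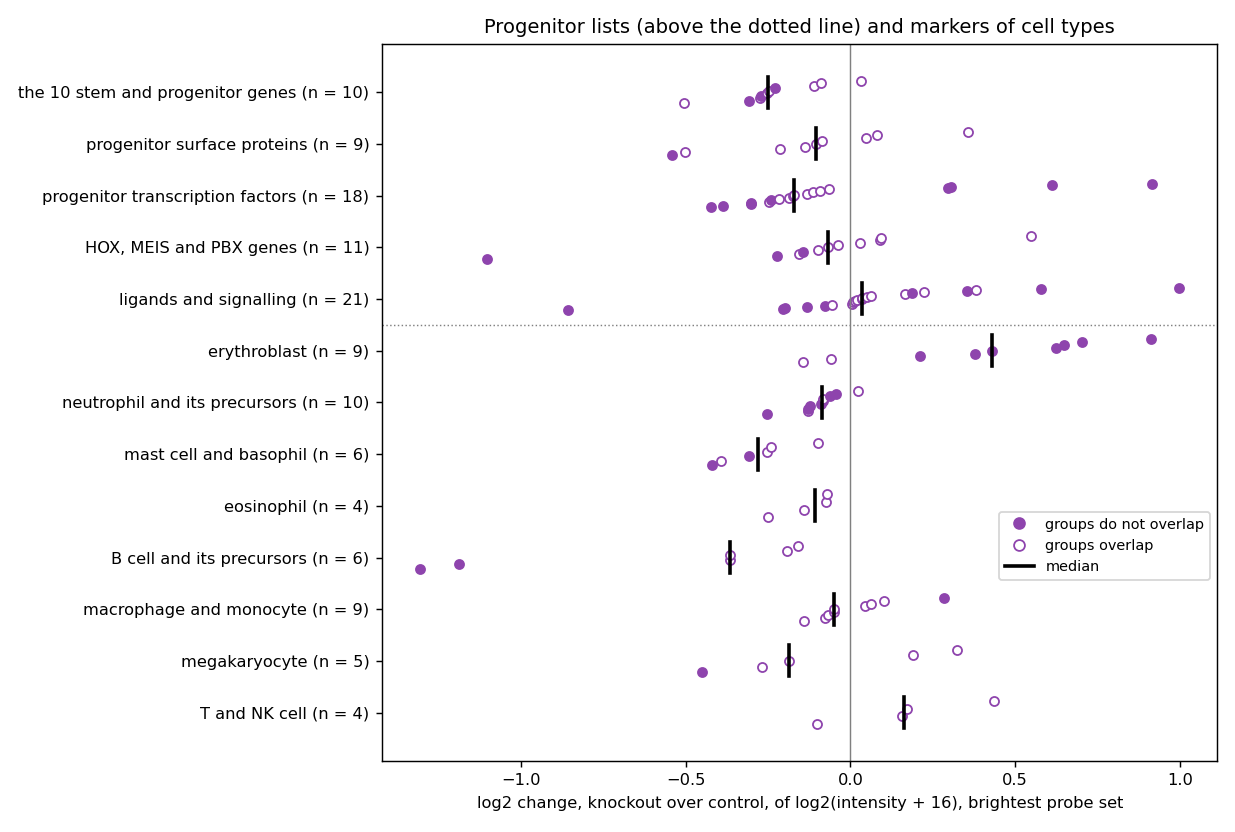
Log2 change, knockout over control, of the brightest probe set of each gene (horizontal axis) in the 10 stem and progenitor genes, the 4 other progenitor lists and the marker lists; filled points are genes whose groups do not overlap, and the black bar is the median. The median of the 10 genes is -0.25. Marker medians are -0.37 for B cell, -0.28 for mast cell and basophil, -0.19 for megakaryocyte and -0.11 for eosinophil markers. The remaining ones are -0.09 for neutrophil, -0.05 for macrophage and monocyte, 0.16 for T and NK cell and 0.43 for erythroblast markers.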

How the data were processed

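Total RNA from 3 knockout and 3 control mice was hybridised to Affymetrix arrays, 1 per mouse, per the labels' protocols. The authors deposited 1 linear intensity per probe set and array; how probes were summarised, background-corrected and scaled, and any scan batch, are not stated in the sources used here. Log2 medians and interquartile ranges differed by at most 0.057 and 0.070, under the limit of 0.1, so the values were not normalized again. The contrast was fitted with limma 3.58.1 under R 4.3.3 (lmFit, eBayes, two-sided) on log2(intensity + 16), which understates changes of dim probe sets, with Benjamini-Hochberg adjustment over 45037 probe sets and a threshold of 0.05, and no filter. Intervals are from the fit and unadjusted. The fit was tested on simulated data. The array annotation gave 1 symbol for 34945 probe sets, updated through Entrez IDs (34741 matched to RefSeq). Each gene was read through its brightest probe set of a single symbol. Every probe set of the 10 genes is named; from each other progenitor list, up to 4 genes by p. Levels of different probe sets are not compared as RNA amounts. The labels name separate mice, so the p-values set the group difference against the spread between mice, moderated over all probe sets. The genes and lists were chosen with earlier results of these data known. Alternatives were quantile normalization, pseudocounts of 1 and 64, keeping only the brightest 50% of probe sets, a robust fit with an intensity trend, the replicate number as a block and leaving out each mouse.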

Additional observations from a re-analysis of the deposited data

How the results depend on the processing

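No gene of the 10 passed the test in any of the 12 alternatives (limma, brightest probe set), 119 of 120 values kept the direction reported, and the lowest adjusted p was 0.148 (Cd34, with an intensity trend and robust moderation). The exception was Csf2rb2, which ran from -0.011 (without control mouse 3) to 0.062 when 1 mouse was left out. None of the 16 probe sets was called in any alternative; 13 of them were among the brightest 50%. The median log2 change of the 10 genes lay between -0.34 and -0.20. Counts over all probe sets, 63 higher and 3 lower in the knockouts, depended on the processing. They were 38 and 0 with a pseudocount of 1, 508 and 50 with a pseudocount of 64, 697 and 142 in the brightest 50% of probe sets, and 1206 and 239 with an intensity trend and robust moderation. Leaving out 1 mouse gave 27 to 41 higher and 0 to 1 lower. The replicate number as a block gave 14 higher and 0 lower and called no gene of the 10. Over all probe sets, mice of the same number did not deviate together (correlations of -0.03, -0.01 and -0.04). These values show no pairing by number, but they cannot exclude a shared batch, which is not stated. The cause of the other shifts was not tested. Precision is limited by 3 mice a group, and without detection calls the dimmest probe sets have no measured floor.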

Other observations

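Where other progenitor genes named above had several probe sets, these mostly shared a direction. All 5 probe sets of Cd93 had log2 changes below 0, from -0.62 to -0.10, as did all 6 of Socs2, from -0.86 to -0.01, and both of Etv6, from -0.39 to -0.31. The Socs2 probe sets at -0.51, -0.15, -0.07 and -0.01 overlapped between groups, with values of 10.85 to 79.5. The dimmest of Cd93 read 25.25 to 71.7. Without detection calls most such levels cannot be told from background, so the shared sign there adds little. All 3 probe sets of Ptpn11 were above 0, from 0.30 to 0.58, as were all 4 of Pik3r1, from 0.27 to 0.39. Of 4 probe sets of Hoxa3, 3 were below 0 and 1 above. None of these probe sets passed the test (limma, adjusted over all probe sets).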
